A study of Homo sapiens with 6 samples.

Results

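Described here are 9 genes of the NRF2 response to oxidants and electrophiles in HepG2 cells, chosen by symbol from a list that names glutathione and thioredoxin genes of this pathway. All 9 were found among the 52408 genes counted. HepG2 is a human liver cancer line with many hepatocyte traits. One group received ellagic acid (EA), a plant polyphenol, at 50 µM for 24 h, and the other its solvent, dimethyl sulfoxide (DMSO), in matching volume and for as long. Each group had 3 RNA sequencing libraries of the one cell line, and since the labels name no separate cultures, a p-value here reflects the scatter among these libraries, possibly technical only. The study set EA against DMSO to learn which pathways the compound targets in liver cancer cells.

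NRF2, encoded by NFE2L2, is a transcription factor that in resting cells is bound by the adaptor KEAP1, which hands it to a CUL3 ubiquitin ligase for destruction. When oxidants or electrophiles modify KEAP1, NRF2 accumulates, pairs with a small MAF protein and binds antioxidant response elements near its target genes. In liver these targets supply cysteine and glutathione, keep thioredoxin reduced, and clear quinones and carbonyls. The control of NRF2 acts largely on its protein, which was not measured. Of the 9 genes, 7 are known targets, while NFE2L2 and KEAP1 are grouped here as the regulators. The working name of targets is used for the first 7.

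Antioxidant response elements have a core that reads TGACNNNGC, where N is any base. This core was searched on both strands of the promoter sequences given by RefSeq for GRCh38.p14, which run from 250 bases before to 50 bases after each gene's start. The read counts rest on hg19, so these sequences were matched by symbol and not by position. An entry was found for 8 of the 9 genes, SLC7A11 being the other, and 3 of the 8 held the core (GCLM, TXNRD1 and KEAP1). Over all promoters in the table, 4687 of 35116 entries (13.3%) held it, against 4 of the 11 entries of these genes, some of which have more than 1. A core whose free bases read TCA would also hold the AP-1 letters TGACTCA, and none of the matches in these genes did. Shown are the genes with the largest rise and fall, GCLC and NQO1, together with the 3 that held the core, in each case the entry with the most matches. Capitals mark the core on either strand.
GCLC, chr6:53545052-53545351, minus strand: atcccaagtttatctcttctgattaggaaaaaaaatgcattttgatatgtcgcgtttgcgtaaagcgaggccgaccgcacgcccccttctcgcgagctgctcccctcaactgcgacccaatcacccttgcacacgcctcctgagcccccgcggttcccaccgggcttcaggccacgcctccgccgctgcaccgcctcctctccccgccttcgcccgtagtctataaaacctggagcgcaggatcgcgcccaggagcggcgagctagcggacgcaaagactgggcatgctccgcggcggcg
GCLM, chr1:93909381-93909680, minus strand: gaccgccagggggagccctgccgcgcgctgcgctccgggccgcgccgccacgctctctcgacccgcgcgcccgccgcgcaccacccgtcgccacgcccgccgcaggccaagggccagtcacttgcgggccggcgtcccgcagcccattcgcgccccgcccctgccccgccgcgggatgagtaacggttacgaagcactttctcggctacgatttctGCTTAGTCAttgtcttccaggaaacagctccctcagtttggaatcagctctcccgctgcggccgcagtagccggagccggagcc
TXNRD1, chr12:104215529-104215828, plus strand: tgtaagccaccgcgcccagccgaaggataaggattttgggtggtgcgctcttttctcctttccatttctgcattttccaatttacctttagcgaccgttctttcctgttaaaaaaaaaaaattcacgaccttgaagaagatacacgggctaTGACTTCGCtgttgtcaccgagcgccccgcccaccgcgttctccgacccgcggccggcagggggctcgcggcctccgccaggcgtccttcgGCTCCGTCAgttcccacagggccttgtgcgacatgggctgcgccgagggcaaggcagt
NQO1, chr16:69726511-69726810, minus strand: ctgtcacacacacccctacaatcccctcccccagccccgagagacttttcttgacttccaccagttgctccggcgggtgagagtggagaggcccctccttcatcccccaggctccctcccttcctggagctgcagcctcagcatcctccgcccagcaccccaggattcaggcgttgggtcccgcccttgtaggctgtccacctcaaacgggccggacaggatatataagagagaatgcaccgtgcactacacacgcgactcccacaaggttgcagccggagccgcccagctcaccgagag
KEAP1, chr19:10502722-10503021, minus strand: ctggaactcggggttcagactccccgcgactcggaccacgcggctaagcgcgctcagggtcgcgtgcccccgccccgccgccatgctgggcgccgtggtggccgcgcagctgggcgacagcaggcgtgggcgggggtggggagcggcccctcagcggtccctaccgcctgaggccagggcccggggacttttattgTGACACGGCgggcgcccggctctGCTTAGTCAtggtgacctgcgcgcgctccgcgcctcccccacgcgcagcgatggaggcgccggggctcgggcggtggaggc
In GCLM the match began 34 bases before the start and read TGACTAAGC on the opposite strand. TXNRD1 held TGACTTCGC on its own strand, 99 bases before the start, and TGACGGAGC on the opposite strand, 8 bases before it. The other TXNRD1 entry, not shown, held TGACAAAGC on the opposite strand, 102 bases before its start. KEAP1 held TGACACGGC on its own strand and, as in GCLM, TGACTAAGC on the opposite strand, 54 and 31 bases before the start. The windows of GCLC, NQO1, SRXN1, OSGIN1 and NFE2L2 did not contain these letters. Response elements known in GCLC and NQO1 lie further upstream than this window. A match is a stretch of letters and was not tested as a binding site.

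After EA, 7 of the 9 genes rose and 2 fell. The genes of cystine uptake and glutathione synthesis, thioredoxin reductase, sulfiredoxin and OSGIN1 were 2.25-fold to 6.81-fold higher, NFE2L2 was 1.46-fold higher, KEAP1 was 0.699-fold the DMSO level, and NQO1 was 0.127-fold. All 9 were called at 0.05 by edgeR (quasi-likelihood test, p adjusted by Benjamini-Hochberg over the 15648 genes tested). Calls were common in this comparison: 81.0% of all tested genes passed in either direction, 40.5% higher and 40.5% lower. By DESeq2, which called the same 9 genes in the same directions, it was 77.6% in all, 39.7% higher and 38.0% lower. A call alone therefore sets none of the 9 apart. The median log2 fold change was 1.26 over the 9 genes and 0.00 over all genes tested, and 7 of the 9 changed by an estimated factor of at least 2, against 45.0% of tested genes. Fewer cells of a type and less RNA per cell cannot be told apart in such bulk samples. Rises and falls are relative to the other reads of a library, in which most tested genes were called, and absolute amounts were not tested.

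**Figure D1:**
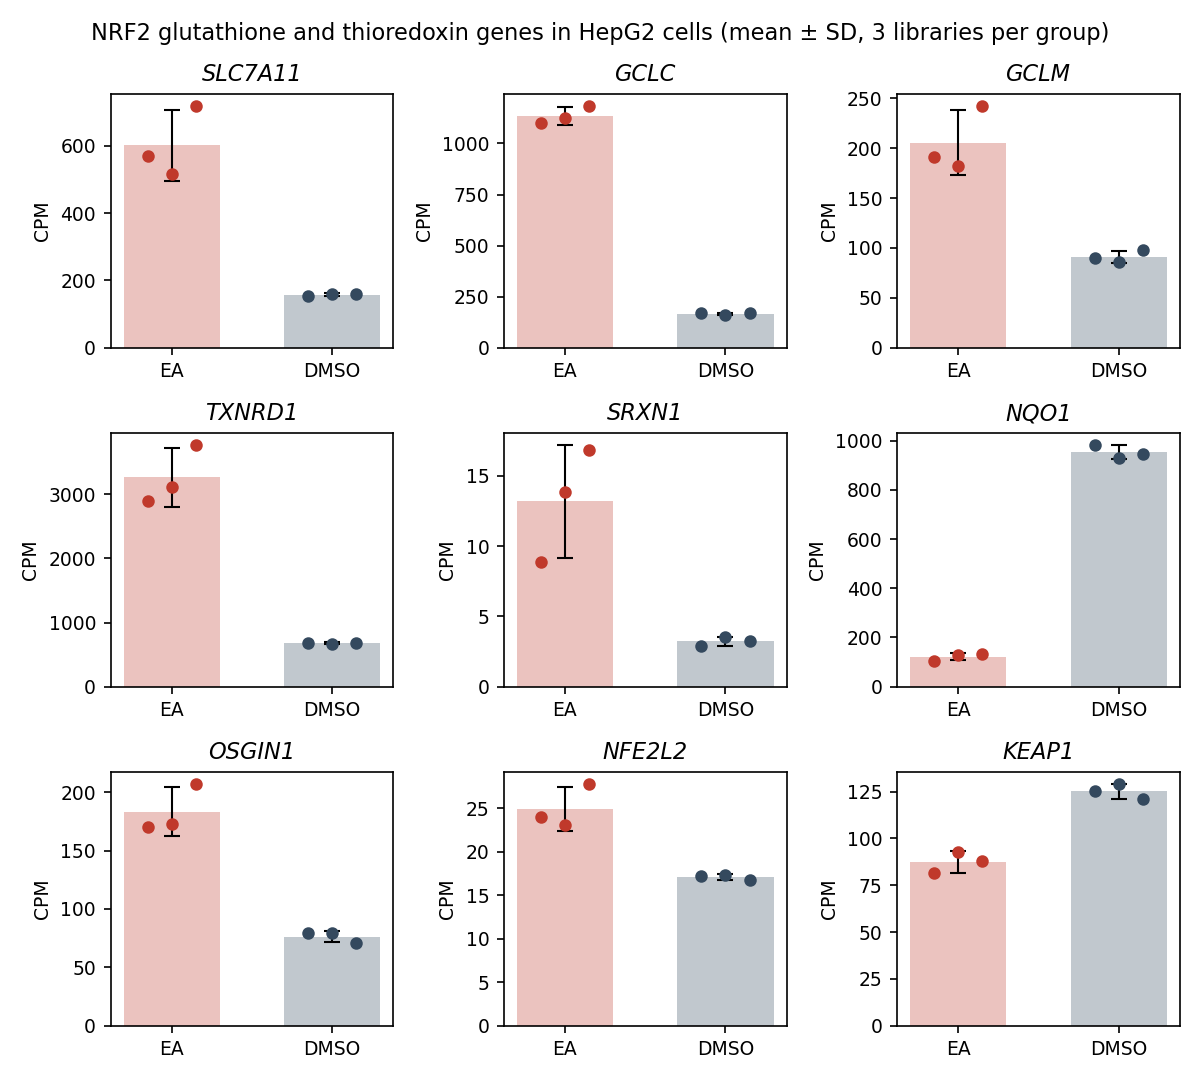
Normalised expression (CPM, read counts scaled to library size) of the 9 genes, each panel with its own linear axis from 0. Bars are means, whiskers SD and points the 3 libraries of each group; the EA points lie above the DMSO points in 7 panels and below them in NQO1 and KEAP1.

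SLC7A11 (ENSG00000151012) encodes xCT, the cystine importer that brings in the cysteine precursor on which glutathione synthesis depends. It stood at 568, 515 and 719 CPM in the EA libraries, against 153, 160 and 160 CPM in the DMSO libraries. Every EA library was above every DMSO library, and EA replicate 3 was the highest. The means were 601 ± 106 CPM with EA and 157 ± 4.18 CPM with DMSO (SD, n = 3 each), a log2 fold change of 1.93 (SE 0.11, adjusted p = 8.62e-09 in edgeR's test). An antisense gene, SLC7A11-AS1, covers 8.97% of its exonic bases in GENCODE 29 and had 103, 94 and 133 reads with EA and 42, 40 and 38 with DMSO, few beside the 9133 to 13609 and 3674 to 4069 reads of SLC7A11. SLC3A2, the heavy chain that carries xCT to the cell surface, rose as well, with 554 ± 27.7 CPM in EA and 239 ± 14.9 CPM in DMSO.

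Glutamate-cysteine ligase, which carries out the rate-limiting step of glutathione synthesis, consists of the catalytic subunit GCLC and the modifier subunit GCLM. GCLC (ENSG00000001084) had 1101, 1123 and 1186 CPM with EA, against 168, 162 and 171 CPM with DMSO. It showed the largest rise of the 9 genes, a log2 fold change of 2.77 (SE 0.07, adjusted p = 2.45e-14 in edgeR's test), and 7.30% of the tested genes had a higher one. GCLM (ENSG00000023909) had 191, 182 and 243 CPM with EA, against 89.6, 86.2 and 97.7 CPM with DMSO. Its groups did not overlap either, but its log2 fold change was smaller, at 1.17 (SE 0.10, adjusted p = 3.36e-07 in edgeR's test).

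The estimated rise thus differed between the 2 subunits. The ratio of GCLC reads to GCLM reads within a library was 5.75, 6.15 and 4.89 with EA, against 1.88, 1.88 and 1.74 with DMSO. No EA ratio came near a DMSO ratio, and the EA ratios were 3.04-fold higher on the geometric mean. An exact two-sided permutation test over the 6 libraries gave p = 0.1, the smallest p that this test can give with 3 against 3, so it cannot reach 0.05.

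**Figure D2:**
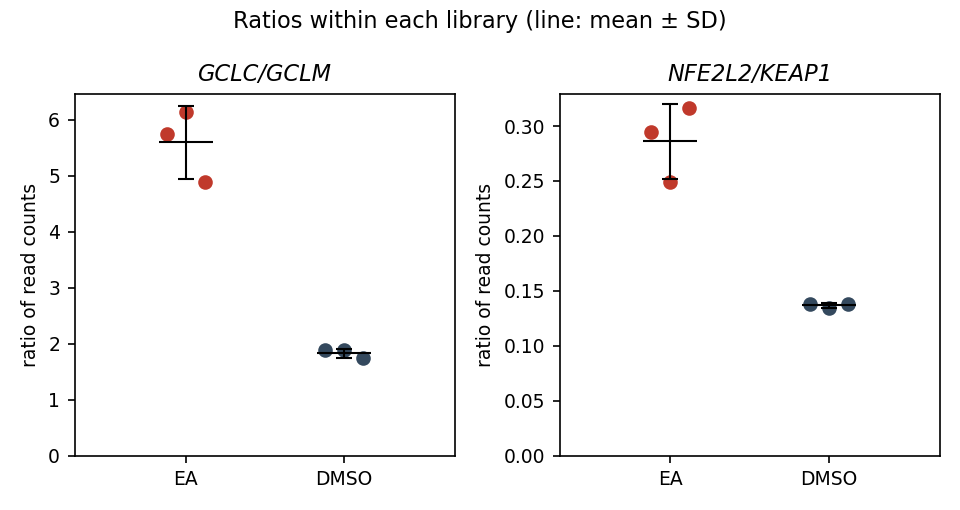
Ratio of read counts within each library for GCLC over GCLM (left) and NFE2L2 over KEAP1 (right), not corrected for gene length. Points are libraries and lines the mean ± SD of 3; in both panels all EA ratios lie above all DMSO ratios, with means of 5.60 and 1.83 on the left and of 0.286 and 0.137 on the right.

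TXNRD1 (ENSG00000198431), the cytosolic selenoprotein that reduces thioredoxin with NADPH, reached 2900, 3117 and 3776 CPM in EA libraries, against 689, 661 and 680 CPM in DMSO libraries. The groups lay far apart, and EA replicate 3 was again the highest. The log2 fold change was 2.27 (SE 0.09, adjusted p = 9.45e-12 in edgeR's test).

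SRXN1 (ENSG00000271303) encodes sulfiredoxin, which restores peroxiredoxins that have been overoxidised by peroxide. It had few reads, 143, 262 and 319 with EA and 75, 82 and 82 with DMSO, or 8.90, 13.9 and 16.9 CPM against 2.92, 3.57 and 3.22 CPM. The groups did not overlap, although EA replicate 1 lay well below the other EA libraries. The log2 fold change was 2.04, with the largest SE of the 9 genes (0.22, adjusted p = 2.77e-06 in edgeR's test). In GENCODE 29, 85.0% of the exonic bases of SRXN1 are shared with a gene on the same strand, AL121758.1, which had 22, 23 and 22 reads with EA and 14, 13 and 18 with DMSO. The sources used here do not say how reads common to both were assigned, which leaves the level of SRXN1 uncertain.

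NQO1 (ENSG00000181019) encodes a quinone reductase and is among the best known NRF2 targets. It went against the genes above, with 106, 127 and 131 CPM in EA libraries and 984, 928 and 947 CPM in DMSO libraries. All EA libraries were far below all DMSO libraries. NQO1 had a log2 fold change of -2.97 (SE 0.08, adjusted p = 1.21e-13 in edgeR's test), and 2.60% of the tested genes had a lower one. The drop does not rest on low counts, since NQO1 had 1699 to 2486 reads in each EA library. An antisense gene in GENCODE 29, AC092115.2, covers 17.7% of its exonic bases and had at most 5 reads in any library.

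OSGIN1 (ENSG00000140961), an oxidative stress-induced growth inhibitor known as an NRF2 target, had 170, 173 and 207 CPM in EA libraries, against 79.2, 79.3 and 70.7 CPM in DMSO libraries. The groups were clearly apart, with a log2 fold change of 1.26 (SE 0.08, adjusted p = 2.22e-09 in edgeR's test).

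The regulators changed least, and in opposite directions. NFE2L2 (ENSG00000116044) had 24.0, 23.0 and 27.9 CPM with EA, against 17.2, 17.4 and 16.8 CPM with DMSO. KEAP1 (ENSG00000079999) had 81.5, 92.7 and 88.2 CPM with EA, against 125, 129 and 121 CPM with DMSO. Neither gene's groups overlapped, with log2 fold changes of 0.55 for NFE2L2 (SE 0.10, adjusted p = 8.54e-05) and -0.52 for KEAP1 (SE 0.07, adjusted p = 4.78e-06), both in edgeR's test. Fold changes of this size are ordinary here, since 33.9% of tested genes had a higher one than NFE2L2 and 34.0% a lower one than KEAP1. Within libraries, the ratio of NFE2L2 to KEAP1 reads was 0.295, 0.249 and 0.316 with EA, against 0.138, 0.134 and 0.138 with DMSO. This was 2.08-fold higher with EA, with an exact two-sided permutation p of 0.1, again the smallest this test can give. Other genes in GENCODE 29 cover 20.9% of the exonic bases of NFE2L2. One of them, AC019080.1 on the same strand, had 84, 69 and 116 reads with EA and 301, 252 and 250 with DMSO, so the level of NFE2L2 also carries some uncertainty of read assignment.

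**Figure D3:**
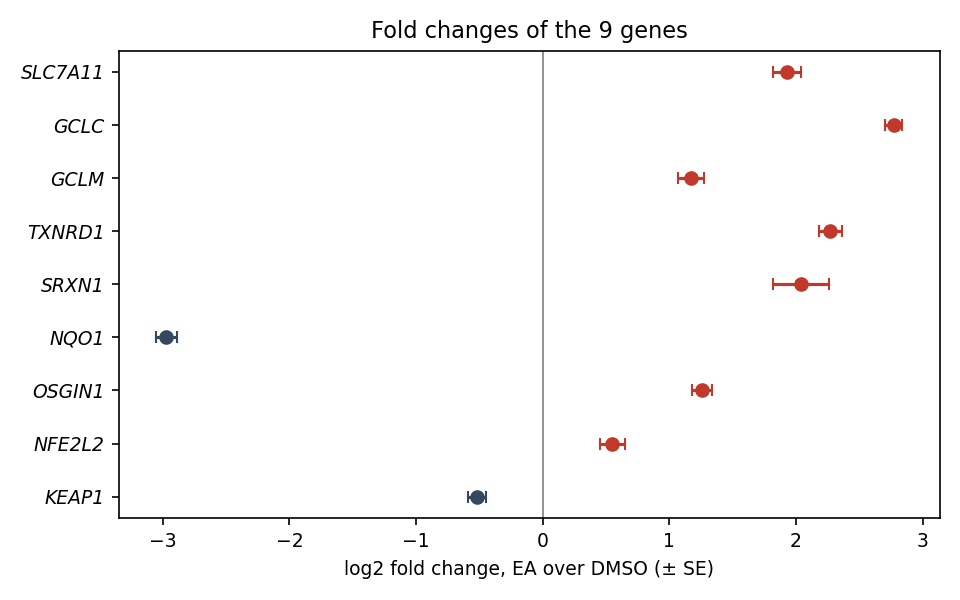
Log2 fold change of EA over DMSO from edgeR for each of the 9 genes, ordered by role from cystine import to the regulators, with whiskers of 1 SE. GCLC lies highest at 2.77 and NQO1 lowest at -2.97, and NFE2L2 and KEAP1 lie nearest 0.

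The 2 groups of 3 libraries did not overlap in any of the 9 genes, which was also true of 82.9% of all tested genes. EA replicates varied more than DMSO replicates in each of the 9 genes. The coefficient of variation (SD over mean) ran from 3.85% in GCLC to 30.4% in SRXN1 with EA, and from 1.88% in NFE2L2 to 10.0% in SRXN1 with DMSO. Over all tested genes it was larger with EA in 67.8%. EA replicate 3 was the highest EA library for 8 of the 9 genes, KEAP1 being the exception, and for 41.0% of all tested genes. Over all tested genes, too, EA replicate 3 differed from its group, at -27.03 on a second principal component of log2 CPM that held 2.38% of the variance, while EA replicates 1 and 2 were at 14.44 and 11.90. Without it all 9 genes kept their direction and call, with log2 fold changes for example of 1.81 for SRXN1, 1.01 for GCLM and 0.43 for NFE2L2.

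Levels were set side by side per kilobase of exon, with the exon lengths of GENCODE 29. These lengths include bases shared with other genes, 85.0% in SRXN1 and 20.9% in NFE2L2, which leaves the places of these genes uncertain. With EA the order of mean CPM per kb was TXNRD1 (487), GCLC (131), SLC7A11 (62.3), OSGIN1 (53.0), GCLM (37.9), NQO1 (37.3), KEAP1 (23.3), SRXN1 (4.90) and NFE2L2 (4.18). The libraries of SLC7A11 and OSGIN1, of GCLM and NQO1, and of SRXN1 and NFE2L2 overlapped, so the order within these pairs is not larger than their spread, and other neighbours did not overlap. With DMSO, NQO1 stood highest (293), before TXNRD1 (101), KEAP1 (33.3), OSGIN1 (22.1), GCLC (19.3), GCLM (16.8), SLC7A11 (16.3), NFE2L2 (2.86) and SRXN1 (1.20). There the libraries of GCLM overlapped with those of SLC7A11, and no other neighbours in the order overlapped. NQO1 thus had the highest level per kb of the 9 genes with DMSO, while with EA it was among the lower ones.

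**Figure D4:**
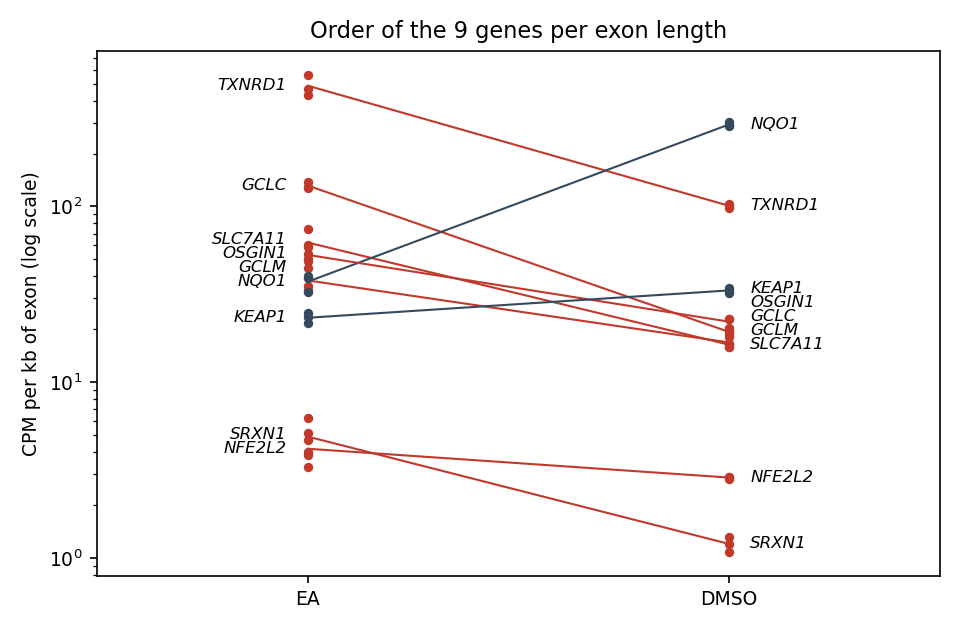
Level of each gene per exon length (CPM per kb, log scale) with EA on the left and DMSO on the right. Points are the 3 libraries and lines join the group means; the lines of NQO1 and KEAP1 run opposite to the others, with NQO1 at 37.3 in EA and 293 in DMSO.

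Ligase components and partners of NRF2 mostly rose, with 8 of 12 tested genes higher, 3 lower and 1 not called (median log2 fold change 0.70). For this list and those below, the shares over all tested genes were 40.5% higher and 40.5% lower. BACH1, a repressor that competes with NRF2 for the same elements, had 342, 324 and 332 CPM with EA, against 66.0, 66.6 and 69.6 CPM with DMSO. Its log2 fold change of 2.30 (SE 0.06, adjusted p = 1.02e-13 in edgeR's test) exceeded that of NFE2L2, and the groups were far apart. The small MAF proteins, which pair with both NRF2 and BACH1, followed, with log2 fold changes of 2.08 for MAFK and 1.78 for MAFF. MAFG was listed at 0 reads in all 6 libraries, which need not mean that it is not expressed. The lower genes were the ligase subunit RBX1 (-0.90), the related factor NFE2L3 (-0.32) and the NRF2 ligase adaptor BTRC (-0.34), and the related factor NFE2L1 was not called (-0.08, SE 0.06).

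Other genes of glutathione use split, with 4 of 13 tested genes higher and 9 lower (median -1.18). Besides SLC3A2 (1.21), the glutathione reductase GSR (0.69) and the conjugate exporter ABCC1 (0.89) rose. GPX2, a glutathione peroxidase that is also a known NRF2 target, had 111 ± 6.30 CPM with EA and 502 ± 28.6 CPM with DMSO, a log2 fold change of -2.18. Those of the microsomal transferase MGST1 and of GPX4, which protects membrane lipids, were -2.22 and -1.25. CHAC1 was below the filter, with 5 reads or fewer in each library.

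Other thioredoxin and peroxiredoxin genes fell. All 10 tested genes of the thioredoxin and peroxiredoxin list were lower with EA and 0 higher, both in edgeR's test and in DESeq2, and 0 were higher at an unadjusted p under 0.05 (median -1.33). The peroxidases PRDX2, PRDX3 and PRDX1 had log2 fold changes of -2.71, -1.47 and -1.42. The thioredoxin gene TXN changed less, at -0.52 (SE 0.06). PRDX1, a substrate of sulfiredoxin and itself a known NRF2 target, had 237, 269 and 235 CPM with EA, against 691, 642 and 651 CPM with DMSO. The groups lay apart, opposite to SRXN1. TXNIP was not analysed here.

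Genes that supply the NADPH used by thioredoxin reductase, glutathione reductase and NQO1 were lower too, in 5 of 5 tested cases, with 0 higher in edgeR, in DESeq2 or at an unadjusted p under 0.05 (median -1.02). The isocitrate dehydrogenase IDH1 had 45.7 ± 7.07 CPM with EA and 540 ± 25.6 CPM with DMSO, a log2 fold change of -3.56. The transaldolase gene TALDO1 had a log2 fold change of -1.02. ME1 was listed at 0 reads in every library.

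Enzymes that, like NQO1, clear quinones and carbonyls were lower in 8 of 9 tested cases, with 0 higher in edgeR, in DESeq2 or at an unadjusted p under 0.05 (median -1.59). NQO2, the closest relative of NQO1, fell by 2.56 on the log2 scale, and the aldo-keto reductase gene AKR1C2 and the carbonyl reductase gene CBR1 had log2 fold changes of -2.26 and -1.65. Reads of AKR1C copies, which are near-identical, may be split between them. AKR1B10 was not called (-0.61, SE 0.30), with 105, 113 and 209 CPM with EA and 210, 213 and 230 CPM with DMSO. EA replicate 3 lay close to the DMSO libraries there. Without that library AKR1B10 was called lower, at -1.02 (adjusted p = 6e-58 in edgeR's test), as it was by limma-voom (adjusted p = 0.00401) and with the replicate block (adjusted p = 0.037). Over the other alternatives its adjusted p ran from 0.102 to 0.259. CBR3 was below the filter.

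Haem and iron targets went both ways, with 3 of 8 higher and 5 lower (median -0.65). That median lay within the quartiles of all tested genes, -0.86 to 0.92. The ferritin heavy chain FTH1 (0.53), the haem transporter SLC48A1 (0.66) and the biliverdin reductase BLVRB (0.59) rose, while the ferritin light chain FTL had a log2 fold change of -1.47, ferrochelatase FECH one of -1.64 and the other biliverdin reductase BLVRA one of -0.90. SLC7A11 and SLC3A2 are also targets of ATF4, the factor of the amino acid stress response. Of 9 tested genes of that list 4 rose, 3 fell and 2 were not called (median 0.02). These counts are near the shares over all tested genes, 40.5% higher and 40.5% lower. ATF4 itself (0.02, SE 0.07) and TRIB3 (-0.06, SE 0.07) were not called. These are transcript levels, and the ATF4 protein was not measured. ATF3 (3.25), SESN2 (1.80) and SLC3A2 rose, whereas PSAT1 (-1.33), ASNS (-0.83) and the transporter SLC7A5 (-0.62) fell.

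**Figure D5:**
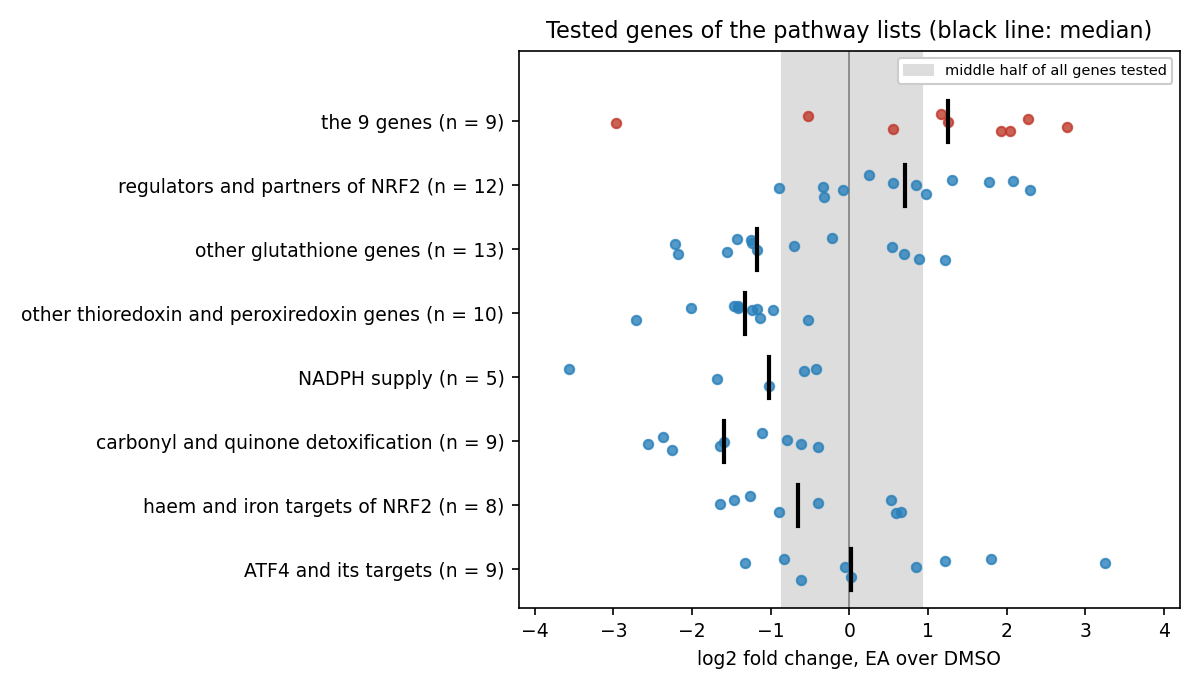
Log2 fold change of EA over DMSO for the tested genes of each list, 1 point per gene, with the median as a black line. The grey band spans the quartiles of all tested genes, from -0.86 to 0.92; the medians of the 9 genes and of the NRF2 regulators are above 0, and those of the other glutathione genes and of the thioredoxin, NADPH and carbonyl lists lie below the band.

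By a rule of likeness, the genes closest to GCLC in profile over the 6 libraries, out of 12491 named genes with at least 1 CPM, were FRMD6, NCEH1 and FOSL2. Their log2 CPM, each centred on its own mean, differed from that of GCLC by a root mean square of 0.033, 0.043 and 0.043. The same rule gave ACAT2, SAA4 and TUBA1A for NQO1 (0.055, 0.058 and 0.064) and EPB41L1, UVRAG and POT1 for NFE2L2 (0.027, 0.028 and 0.034). With 6 libraries in 2 groups that lie far apart, this measure reflects mainly the size of the fold change.

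Libraries held 15738089 to 19202292 reads with EA and 22987425 to 25973621 with DMSO. The first principal component, with 95.5% of the variance, separated the groups. All 8 hepatocyte markers of the liver label were detected, and their summed level was 13510 to 14062 CPM with EA and 50803 to 53733 CPM with DMSO, with 7 lower and APOA1 higher (log2 fold change 0.35). The part of this shift in the results above was not tested. Markers of other cell types were low: summed levels were 4.56 to 6.34 CPM with EA and 16.4 to 17.5 CPM with DMSO for 5 fibroblast genes, and at most 3.92 CPM for 4 blood cell or 3 endothelial genes. COL1A2, DCN, PTPRC and CD3E were at 0 in every library.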

How the data were processed

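RNA of HepG2 cells was sequenced as paired reads of 150 bp. The deposited table holds raw counts from the authors, whole reads for each gene without normalisation. Tools named in the submitters' processing notes are HTSeq 0.6.1, HISAT, cutadapt 1.9.1 and bcl2fastq 2.17.1.14, with hg19 as the build. The annotation release and strand setting were not given in the sources used here. It is therefore not known how reads common to a gene and an antisense or overlapping neighbour were assigned.

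Columns were matched to samples by name. After filterByExpr and TMM scaling, EA was set against DMSO with the quasi-likelihood test of edgeR 4.0.16 (robust, in R 4.3.3), and p was adjusted by Benjamini-Hochberg over all 15648 genes tested, with calls at 0.05. An SE was derived from the fold change and its F value. With 0 reads, up to 0.117 to 0.187 CPM is allowed in a library (3 reads, counting error only). The test was checked on simulated data in which only a small part of the genes changed. That check does not cover data such as these, where most genes were called.

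The 9 genes and the lists were chosen with earlier results of these data known, and no list has a p of its own. Each list is described by its counts. The text names up to 3 risers and 3 fallers of smallest p, genes not called and genes under the filter. TXN is named besides. One gene that this rule takes is not reported here. Profiles used log2 of CPM plus 0.5. Exon lengths and overlaps came from GENCODE 29 (GRCh38). Alternatives were DESeq2 1.42.0, limma-voom (limma 3.58.1), other scalings and filters, an adjusted p of 0.01, libraries thinned to one depth, leaving out the 20 most read genes, a replicate block and each library left out.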

Additional observations from a re-analysis of the deposited data

How the results depend on the processing

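Each of the 9 genes kept its direction and its side of the threshold under all 17 alternatives (153 of 153 values). The stricter adjusted p changed only the threshold and repeats the fold changes of the main fit. All the alternatives compared levels relative to the other reads of a library. Their agreement therefore does not extend to absolute amounts, and whether NFE2L2 or KEAP1 changed per cell was not tested. Ranges of the log2 fold change were 2.64 to 2.81 for GCLC, 1.01 to 1.24 for GCLM, 2.13 to 2.34 for TXNRD1, 1.81 to 2.24 for SRXN1, 1.76 to 2.02 for SLC7A11, 1.13 to 1.30 for OSGIN1 and 0.42 to 0.59 for NFE2L2. NQO1 ranged from -3.10 to -2.89 and KEAP1 from -0.65 to -0.48. The largest adjusted p over all tools and settings was 0.00176, for NFE2L2. Counts of called genes in the 7 lists stayed within 1.5 times of those reported in 238 of 238 cases. Of the genes not called, AKR1B10 was called lower by limma-voom, with the block and without EA replicate 3 (log2 fold changes of -0.68, -0.68 and -1.02), and NFE2L1 and TRIB3 with no filter (-0.21 and -0.19). With every gene with at least 1 read tested, 14923 of 32015 genes (46.6%) were called and the median log2 fold change of all genes was 0.25.

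The labels do not say whether same-numbered libraries were paired. Same-numbered EA and DMSO libraries had correlations of deviations of -0.12, 0.04 and -0.01, which with 3 libraries per group cannot settle it. With a replicate block 12537 genes were called, against 12680 without it, and the block left the calls of the 9 genes as they were (GCLC 2.77, NQO1 -2.98, KEAP1 -0.52). The block also left the GCLC to GCLM ratio at a log2 difference of 1.60 and that of NFE2L2 to KEAP1 at 1.06. SRXN1 had the fewest reads of the 9 genes, and its SE was 0.22 both as deposited and thinned to equal depth. The SE was 0.15 without EA replicate 1, 0.25 without EA replicate 2 and 0.14 without EA replicate 3. What sets this spread was not tested.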
